A study of Mus musculus with 3 samples.

Results

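The genes described here are 9 transcripts of the integrated stress response and of related responses to starvation, namely Gdf15, Ifrd1, Ddit3, Ddit4, Atf4, Trib3, Sesn2, Txnip and Cdkn1a. They were found by symbol among the 32285 genes counted and take up 10 rows, because Ddit3 has 2 gene identifiers, of which the second held no UMI in any barcode. The members were chosen with earlier results of these data known. Ddit4 and Txnip were chosen by their levels in a macrophage cluster called Res-Txnip hi, which Ddit4 had led and for which Txnip is 1 of 3 naming markers, so their levels among macrophage clusters are given as a description. No measured value was given for the choice of the other 7.

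The cells were CD45+ leukocytes of the aorta of 5 Jak2WT mice and 5 Jak2V617F Myel mice on a C57BL/6 background, males and females. In Jak2V617F Myel mice LysM-Cre switches on 1 floxed copy of the activating Jak2V617F mutation, and the controls were littermates; the age of the mice used for sequencing was not given in the sources used here. LysM-Cre acts in neutrophils, monocytes and macrophages alike, and the mutation was not read in single cells. Of the mutant mice, 3 had aortic dilation (mice 6, 8 and 10) and 2 had an aneurysm (mice 7 and 9), while mice 1 to 5 were Jak2WT, each mouse being called by the number of its hashtag antibody. Blood leukocytes were stained through an intravenous antibody and excluded when sorting. The aortas were digested with warmed enzymes, and the part of this step in the transcript levels was not tested. The cells of all mice were pooled in 1 sort and 1 droplet run. Expression was read as UMIs, the unique molecular identifiers that mark each captured transcript.

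When amino acids run short, unfolded proteins build up or heme is lacking, kinases phosphorylate the translation factor eIF2. General protein synthesis then slows while the transcription factor ATF4 is made, and ATF4 switches on genes for amino acid supply, redox balance and, under lasting stress, cell death. DDIT3 (CHOP) acts downstream of ATF4, TRIB3 restrains it, and SESN2 and DDIT4 (REDD1) hold back the growth kinase complex mTORC1. GDF15 is a secreted cytokine released by stressed cells, among them macrophages, and IFRD1 is a transcriptional co-regulator. TXNIP limits glucose uptake and its gene responds to glucose through MondoA, while CDKN1A (p21) is an inhibitor of the cell cycle and the best known target of p53.

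By GENCODE annotation on GRCm38 all 9 are protein-coding genes. Gdf15 lies at chr8:70629393-70632456 on the minus strand, Ifrd1 at chr12:40201567-40248504 on the minus strand and Atf4 at chr15:80255184-80257541 on the plus strand. Ddit3 lies at chr10:127290774-127296288 (plus), Ddit4 at chr10:59949669-59951834 (minus), Trib3 at chr2:152337422-152344032 (minus), Sesn2 at chr4:132492032-132510501 (minus), Txnip at chr3:96557957-96561883 (plus) and Cdkn1a at chr17:29090976-29100727 (plus). Exons of Ddit3 overlap with those of its second identifier on the same strand and of Mars and Gm4189 on the other strand, and exons of Ifrd1, Txnip and Cdkn1a overlap with 1 gene each on the other strand. The promoter windows of RefSeq (build GRCm38.p6) gave 11 windows for the 9 genes, and their 250 bases before the transcript start were searched on both strands for 5 motifs. Txnip is shown because its mean was highest in the macrophage cluster where those of Gdf15 and Ifrd1 were lowest, and because its window held a match to the carbohydrate response element (ChoRE, paired E-box-like sequences to which MondoA binds), found in 0.28% of the 32851 windows of all genes, and to the FOXO motif GTAAACA, found in 3.17%. The window is chr3:96557707-96557956 on the plus strand, with both matches in capitals, the FOXO match first.

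Txnip: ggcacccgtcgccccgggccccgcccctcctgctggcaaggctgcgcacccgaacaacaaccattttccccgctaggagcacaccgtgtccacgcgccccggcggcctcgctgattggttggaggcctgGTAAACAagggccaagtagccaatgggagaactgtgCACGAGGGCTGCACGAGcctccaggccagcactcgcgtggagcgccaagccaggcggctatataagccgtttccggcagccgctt

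The FOXO match began 121 bases and the carbohydrate response element match 85 bases before the start. An E-box CACGTG, found in 6.02% of windows, stood in 1 of the windows of Gdf15, 83 bases before that start. The composite element of C/EBP and ATF proteins TGATGNAA (3.45% of windows) and the cyclic AMP element TGACGTCA (1.55%) had no match in the windows of the 9 genes.

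After removal of 2265 barcodes with more than 1 hashtag, 349 with none and 986 cells over the mitochondrial limit, 4871 of 8471 barcodes were kept. Depth differed between the groups. Between 112 and 553 cells were kept per Jak2WT mouse, with a median of 5441.5 to 8293 UMIs per cell. Dilation mice gave 345 to 774 cells with 7762.5 to 9192.5 UMIs, and the aneurysm mice 7 and 9 gave 811 and 795 cells with 9817 and 10775 UMIs. The kept cells held 33426 UMIs of Ifrd1, 26576 of Cdkn1a, 13906 of Gdf15, 11492 of Atf4 and 11124 of Txnip, against 2188 of Ddit3, 1511 of Ddit4, 407 of Sesn2 and 36 of Trib3. Jak2 transcripts stood at 15.4 to 34.4 CPM (the UMIs of a gene scaled to the summed UMIs of the cells) in resident macrophages of Jak2WT mice and 16.3 to 34.3 in mutant mice, which does not check the labels, since 3′ counts do not show a point mutation.

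Macrophages numbered 2109. Clusters with little RNA were left out (379 cells), at 24.8% to 34.0% of macrophages per Jak2WT mouse, 12.9% to 18.1% per dilation mouse, and 9.82% and 11.2% in mice 7 and 9. To keep the members from shaping the clusters, they and the genes of their pathways were left out of the genes used for clustering. The resident macrophages then formed a Res-MGL1hi cluster of 370 cells, led by Cd209 genes and Aqp1. They also formed a cluster of 293 cells led by interferon-induced genes such as Ifit2 and Isg15. This cluster was called resident by its score of 1.26 on the Res-Txnip hi markers. Txnip is among these markers, so it had a part in the choice of the resident cells. When the response genes were used, 215 of these 293 cells were called Res-Txnip hi. A further 53 fell in a separate cluster named by interferon-induced genes, which was not called resident. Of the Res-MGL1hi cluster, 221 cells were then called Res-MGL1hi and 123 Res-S100hi, so that it merges both subsets. These 663 cells are called resident macrophages here. A further cluster of 522 cells, led by immediate-early genes (IEG+), scored 0.376 on the Res-Txnip hi markers, above the limit of 0.3. It was left out of the resident macrophages by a rule on its name. The 663 cells carried the resident markers Lyve1 (1072 to 2459 CPM over mice) and Mrc1 (1513 to 2596 CPM). They had 9.38 to 30.3 CPM for the summed B cell markers, 4.62 to 21.4 CPM for the T cell markers and 27.9 to 40.0 CPM for the neutrophil markers. Each mouse gave 32 to 111 of them, with 319846 to 1266413 UMIs.

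Among cell classes the members fell into different orders, given here as the mean CPM over mice with at least 10 cells of the class, without a test. Gdf15 was high in macrophages and low in lymphocytes. Its mean was 813 ± 277 CPM (SD, n = 9 mice) in IEG+ macrophages, a cluster led by immediate-early genes such as Egr1, and 678 ± 649.7 (n = 5) in Ccr2+ inflammatory macrophages, which overlapped. It was 275 ± 120.2 (n = 8) in Res-MGL1hi and 147 ± 109.6 (n = 10) in interferon-gene macrophages. B cells, T cells and type 2 innate lymphoid cells (ILC2) had 12.6 ± 8.49, 9.10 ± 6.13 and 13.1 ± 8.75 CPM, and did not differ beyond their spread. An unnamed cluster of 43 cells led by Klk1 had a mean of 726 CPM from 2 mice, which had 4.90 and 1447.

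**Figure D1:**
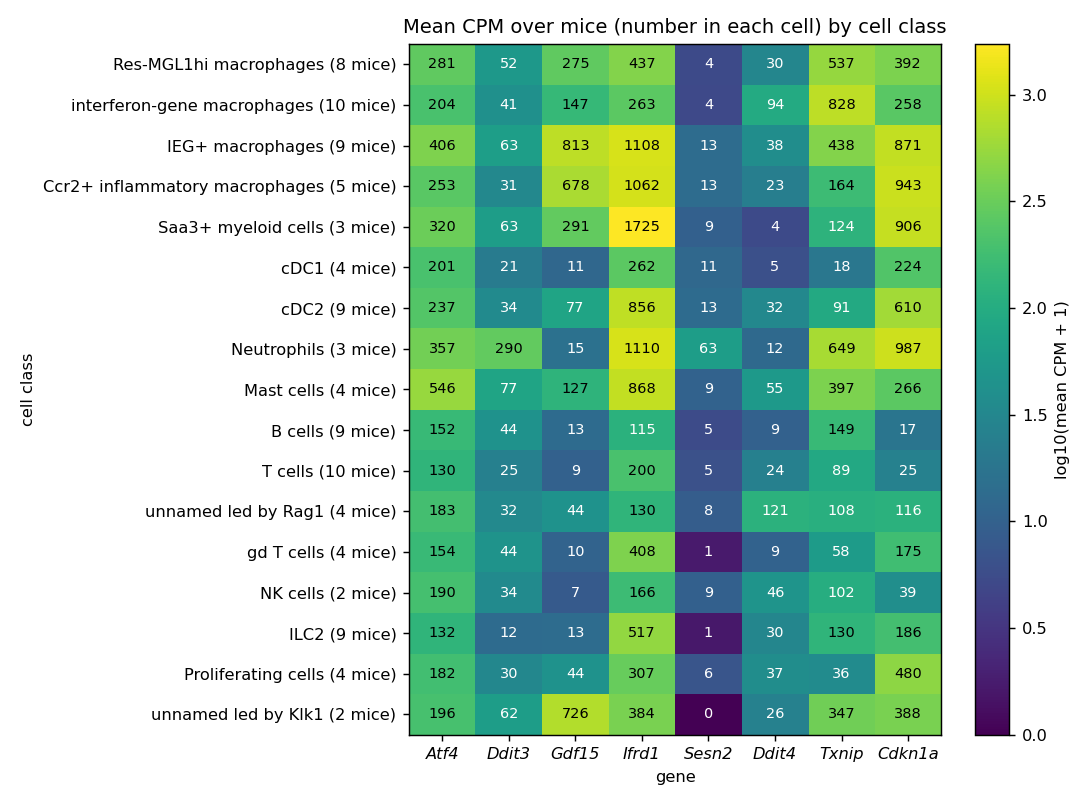
Mean CPM over mice of 8 members (columns) in 17 cell classes (rows, with the number of mice that gave at least 10 cells). Colour shows log10(mean CPM + 1) and each cell prints the mean. Gdf15 ranges from 7.25 in NK cells to 813 in IEG+ macrophages, while Txnip is highest in interferon-gene macrophages at 828. Of the 293 interferon-gene cells, 215 were called Res-Txnip hi when the response genes were used for clustering.

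After every cell was thinned to 2000 UMIs, 24.6% of IEG+ macrophages had a Gdf15 UMI (95% exact Clopper-Pearson interval 21.0% to 28.6%), as had 27.5% of Ccr2+ inflammatory (23.5% to 31.7%), 19.0% of Res-MGL1hi (15.1% to 23.3%) and 8.53% of interferon-gene macrophages (5.60% to 12.3%). T cells, taken as the background, had 2.01% (0.872% to 3.92%). Intervals cover counting error only, and pool the mice. Without thinning the shares were 36.8%, 42%, 36.5%, 16.0% and 8.8%, at median depths of 9191, 12799, 12003.5, 8888 and 7727 UMIs. Thinning left out 2 IEG+, 4 Ccr2+, 1 Res-MGL1hi and 11 T cells. With the mice pooled, the shares in all 4 macrophage clusters lay above the background. By mouse, Gdf15 was at least 380 CPM in IEG+ and 146 CPM in Res-MGL1hi macrophages, against at most 17.9 CPM in T cells. It went down to 0 CPM in a mouse of the interferon-gene and of the Ccr2+ inflammatory cluster. Of the 5 mice with at least 10 Ccr2+ inflammatory cells only mouse 2 was Jak2WT.

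Ifrd1 was broadly present. Its mean was 1725 ± 151 CPM (n = 3) in Saa3+ myeloid cells, 1110 ± 299.6 (n = 3) in neutrophils, 1108 ± 208 (n = 9) in IEG+ and 1062 ± 186 (n = 5) in Ccr2+ inflammatory macrophages. Conventional dendritic cells of type 2 (cDC2) had 856 ± 114 (n = 9), ILC2 517 ± 199 (n = 9), Res-MGL1hi macrophages 437 ± 169, interferon-gene macrophages 263 ± 161, T cells 200.4 ± 96.9 and B cells 115 ± 26.6. The neutrophil, IEG+ and Ccr2+ values overlapped, as did those of the last 3 classes named. The class of 109 cells called neutrophils was led by Retnlg and S100a9. Its leading genes also held Prss34 and Mcpt8, which are basophil genes, so its values may come from both cell types. Cdkn1a had a similar order, with 987 CPM in neutrophils (113, 229 and 2618 in the 3 mice), 943 ± 327 in Ccr2+ inflammatory and 871 ± 324 in IEG+ macrophages, against 17.2 ± 6.79 in B cells and 25.5 ± 17.8 in T cells.

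The factors at the core of the pathway are Atf4 and Ddit3. In the classes with at least 2 mice Atf4 ranged from 130.1 ± 17.9 CPM in T cells and 132 ± 36.6 in ILC2 to 406 ± 42.1 in IEG+ macrophages and 546 ± 15.6 (n = 4) in mast cells. Within macrophages its mean was 281 ± 64.8 in the Res-MGL1hi and 204 ± 39.7 in the interferon-gene cluster. In these classes Ddit3 had means of 12.5 to 76.7 CPM outside neutrophils, where Jak2WT mouse 3 had 649.6 CPM from 46 UMIs and the aneurysm mice 7 and 9 had 169 and 51.1.

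Sesn2 and Trib3, which ATF4 induces, were close to the limit of detection. Sesn2 reached 63.1 ± 14.5 CPM in neutrophils, where all 3 mice (46.4 to 72.4 CPM) stood above every mouse of the IEG+ cluster (2.83 to 33.9), and 4.33 ± 1.72 CPM in Res-MGL1hi macrophages. After thinning 13.2% of neutrophils (7.41% to 21.2%) had a Sesn2 UMI, against 0.251% of T cells (0.00636% to 1.39%), at median depths of 4091 and 7727 UMIs and with 24.8% and 2.44% before thinning. Trib3 had a mean of 0 to 2.04 CPM in the classes, and a UMI in 1 of the 662 thinned resident macrophages.

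Among macrophages Txnip had 828 ± 217 CPM in interferon-gene macrophages, 537 ± 91.8 in Res-MGL1hi, 438 ± 161 in IEG+ and 164 ± 196 in Ccr2+ inflammatory macrophages, with neighbours in this order overlapping. Of thinned cells 71.7% (66.1% to 76.8%), 60.7% (55.5% to 65.7%), 48.5% (44.1% to 52.9%) and 12.6% (9.74% to 15.9%) had a Txnip UMI, against 2.41% (0.293% to 8.43%) in type 1 conventional dendritic cells, whose median depth was 18228 UMIs. T cells, the background used for Gdf15, had 14.6% (11.3% to 18.4%), so the Ccr2+ inflammatory share did not lie above it. Before thinning these shares were 97.3%, 93.0%, 80.3%, 39.5%, 19.3% and, in T cells, 40.1%. Outside these clusters Txnip had 649 ± 526.1 CPM in neutrophils, 421 ± 187 in the macrophages with little RNA, 397 ± 103 in mast cells and 347 in the Klk1-led cluster (292 and 402 in 2 mice). Ddit4 was also highest on average among macrophages in the interferon-gene cluster, at 94.3 ± 66.7 CPM. The means were 37.7 ± 25.9 in IEG+, 29.8 ± 22.6 in Res-MGL1hi and 23.0 ± 25.2 in Ccr2+ inflammatory macrophages. All these clusters overlapped, as the mice of the interferon-gene cluster ranged from 0 to 179 CPM. The highest Ddit4 mean, 120.8 ± 35.9 CPM (n = 4), was in an unnamed cluster of 203 cells led by Rag1.

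When the response genes were used for clustering, the 235 cells then called Res-Txnip hi had 919.95 ± 234 CPM of Txnip and 113 ± 74.8 of Ddit4, as their choice implies. The same cells had 50.0 ± 40.7 CPM of Gdf15, 70.9 ± 15.9 of Ifrd1 and 119 ± 49.5 of Cdkn1a over the 10 mice. For Ifrd1 the highest mouse in these cells (92.9 CPM) was below the lowest mouse of the Res-MGL1hi cluster (192 CPM). These cells were set apart with the members in use, so none of these differences was tested.

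**Figure D2:**
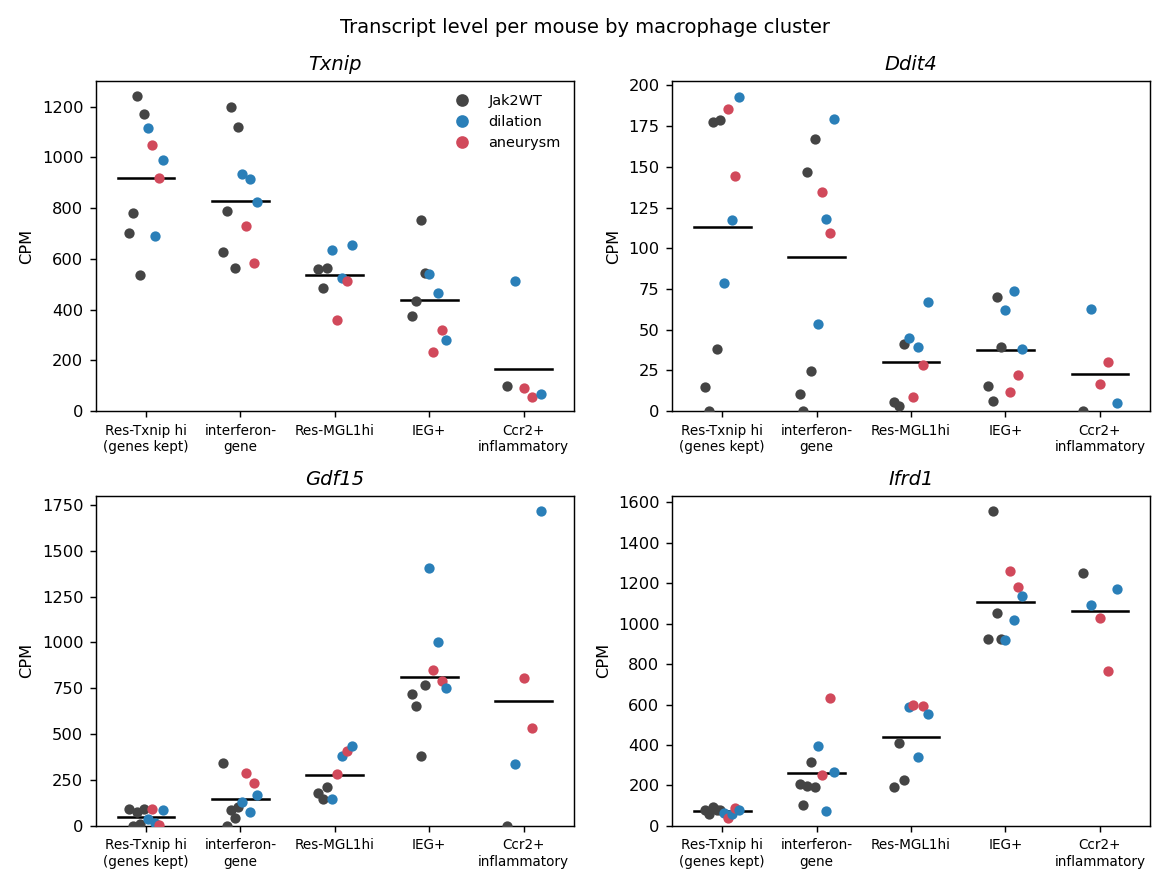
CPM of Txnip, Ddit4, Gdf15 and Ifrd1 (vertical axes, from 0) per mouse in 5 macrophage clusters (horizontal axis), with points coloured by group and black lines at the mean over mice. From left to right Txnip falls from a mean of 919.95 to 164 while Ifrd1 goes from 70.9 to 1108 in IEG+ and 1062 in Ccr2+ inflammatory macrophages. The Res-Txnip hi cells come from the clustering that used the response genes, so they overlap with the interferon-gene cells.

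The genes whose class means ran most like those of a member were sought over 18 classes and 9783 genes, by Pearson r on log2(mean CPM + 1). One of the classes, platelets, came from 1 mouse and had no UMI of any member but Ifrd1, so each r is also given over the 17 classes with at least 2 mice, a choice made after the data were seen. The r moved most for Atf4, whose nearest genes Sde2, Eif5 and Samd4b had 0.98 each and then 0.82, 0.74 and 0.77. Those of Txnip, namely Nsun6, Ppp2r3d and Mindy2, had 0.93, 0.92 and 0.91 and then 0.82, 0.80 and 0.79. None of these 6 genes was among the 3 nearest over the 17 classes. For Ddit3 the nearest were Impact, an inhibitor of the eIF2 kinase GCN2 (0.94, then 0.81), Wbp1l (0.93, then 0.78) and Mafk (0.92, then 0.75), of which 1 stayed among the nearest 3. For Gdf15 they were Arsa (0.94, then 0.92), Fmn1 (0.93, then 0.94) and Csf1r (0.92, then 0.89), of which 1 stayed. For Ifrd1 they were Ccrl2 (0.92, then 0.88), Rab20 (0.91, then 0.87) and Gm17056 (0.90, then 0.85), and for Cdkn1a Klf10 (0.95, then 0.90), Tnf (0.95, then 0.93) and Gm17056 (0.95, then 0.92), with 2 staying in each. Ddit4 was nearest to Zfp715, Kansl2 and Dhcr7 (0.92, 0.89 and 0.89, then 0.85, 0.79 and 0.83) and Sesn2 to Kpna4, Ndel1 and Lonrf1 (0.84, 0.81 and 0.79, then 0.79, 0.79 and 0.75), with 1 staying in each. The classes share one run and the likeness is a description.

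The first comparison asked whether the members differed between genotypes in resident macrophages, with UMIs summed per mouse. In these cells, which leave out the IEG+ cluster, Ifrd1 rose in Jak2V617F Myel mice, and was the 1 member of the 7 tested that passed the threshold. Atf4, Ddit3 and Gdf15 were higher on average but did not pass it, Cdkn1a, Txnip and Ddit4 were further from it, and Trib3 and Sesn2 had too few UMIs to be tested. Over all genes 71 of 6605 passed (1.07%), of which 48 were higher (0.727%) and 23 lower in the mutant. At an unadjusted p under 0.05 stood 5 of the 7 members and 13% of all genes. Because the members were chosen with earlier results of these data known, these shares are a description. No value was given for the choice of Ifrd1, so whether its call is independent of that choice is not known.

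Ifrd1 had 202, 313, 198, 350.2 and 207 CPM in Jak2WT mice 1 to 5. It had 532, 274 and 475 CPM with dilation and 524 and 602 with aneurysm. Mouse 8 (274 CPM) lay within the range of the Jak2WT mice and the other 4 mutant mice lay above it. The log2 fold change was 0.94 ± 0.20 (SE, edgeR quasi-likelihood test, adjusted p = 0.0375). Leaving out mouse 1, 3, 5, 6, 7, 9 or 10 in turn ended the call (adjusted p of 0.123, 0.108, 0.0864, 0.0819, 0.0805, 0.112 and 0.0658), while the log2 fold change stayed between 0.84 and 1.10 over all 10 omissions. It was 0.26 with the IEG+ cluster added (adjusted p = 0.612), 0.31 in all macrophages (adjusted p = 0.542) and 1.33 where the response genes shaped the clusters (adjusted p = 0.00968). In that last setting Gdf15, Ddit3, Atf4 and Cdkn1a passed as well, but the members had helped to choose the cells, so it is no test of them.

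Atf4, the effector of the response, had 189, 243, 151, 253 and 170.2 CPM in Jak2WT mice 1 to 5. It had 307, 279 and 298 CPM with dilation and 269.8 and 331 with aneurysm, so that all mutant mice lay above all Jak2WT mice. Of the genes tested 1.77% were higher and 1.35% lower in this way, and Atf4 was the 1 member among 7, higher. The log2 fold change was 0.57 ± 0.14 (adjusted p = 0.0625). DESeq2 called both Ifrd1 (adjusted p = 0.00214) and Atf4 (adjusted p = 0.00619), among 125 genes called in all.

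Ddit3 had 50.8, 27.7, 44.7, 40.6 and 25.7 CPM in Jak2WT mice, from 13 to 33 UMIs per mouse. It had 58.0, 48.9 and 62.4 CPM with dilation and 70.1 and 69.4 with aneurysm. Only mouse 8 (48.9) fell below the highest Jak2WT mouse. The log2 fold change was 0.74 ± 0.20 (adjusted p = 0.0863).

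Gdf15 had 297, 102, 80.9, 56.3 and 153 CPM in Jak2WT mice. It had 141, 306 and 365 CPM with dilation and 285 and 369 with aneurysm. The groups overlapped through mouse 1, which stood at the level of the mutant mice, and mouse 6, which stood within the Jak2WT range. The log2 fold change was 1.02 ± 0.32 (adjusted p = 0.135). Without mouse 1 it was 1.51 (adjusted p = 0.0382), and it did not pass without any other mouse (adjusted p of 0.0855 to 0.294).

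Cdkn1a had 222, 313, 128, 428 and 252 CPM in Jak2WT mice, against 315, 252 and 498 with dilation and 341 and 551 with aneurysm. The groups overlapped, with a log2 fold change of 0.56 ± 0.26 (adjusted p = 0.368). Where the response genes shaped the clusters, which is no test of Cdkn1a, it was 0.93 (adjusted p = 0.0478).

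Txnip had 608, 579.8, 1119, 628 and 869 CPM in Jak2WT mice. It had 724, 623 and 699 with dilation and 437 and 528 with aneurysm, and only the 2 mice with aneurysm lay below the Jak2WT range. The log2 fold change between genotypes was -0.34 ± 0.17 (adjusted p = 0.451). Because Txnip was among the markers by which resident cells were chosen, its values in these cells are a description. Ddit4 had 9.24, 2.13, 126, 18.8 and 110.1 CPM in Jak2WT mice, against 47.5, 59.3 and 97.1 with dilation and 35.0 and 46.5 with aneurysm. Its Jak2WT mice lay on both sides of the mutant mice, with a log2 fold change of 0.13 ± 0.54 (adjusted p = 0.967).

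Sesn2 had 4, 1, 1, 2 and 2 UMIs in Jak2WT mice 1 to 5 and 4, 1, 3, 7 and 8 in mice 6 to 10. Trib3 had 2, 0, 0, 1 and 0 UMIs and 0, 0, 1, 4 and 1. A difference in either was not detectable at this depth.

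**Figure D3:**
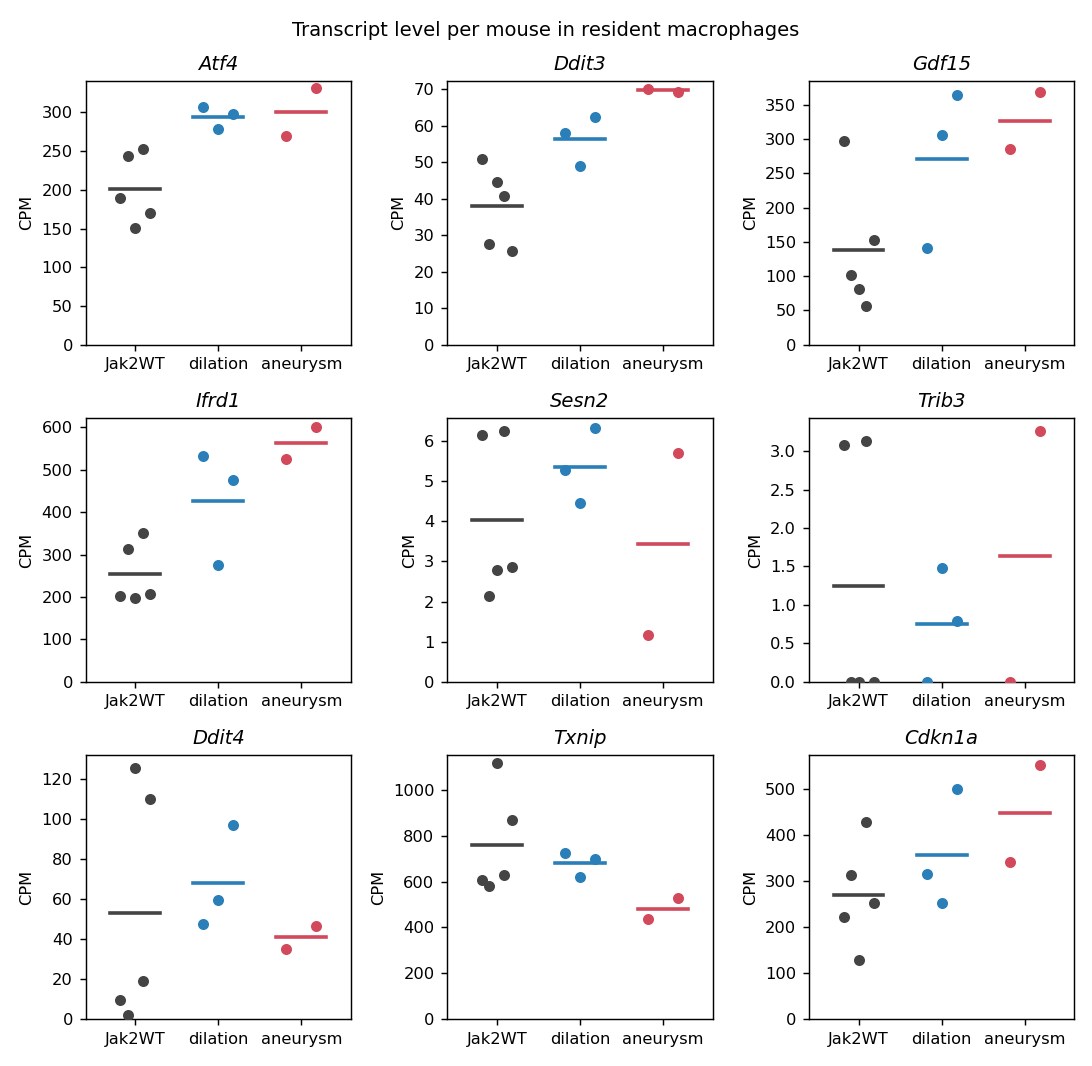
CPM of the 9 members (vertical axes, from 0) per mouse in resident macrophages, by group (5 Jak2WT, 3 dilation and 2 aneurysm mice), with lines at the group means. For Atf4 all 5 mutant mice (269.8 to 331) sit above all 5 Jak2WT mice (151 to 253), for Ifrd1 all but mouse 8 do, and for Ddit4 the Jak2WT mice span the mutant mice.

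The makeup of the resident macrophages also differed between the groups. The interferon-gene cluster was 38.1% to 88.4% of the resident cells of each Jak2WT mouse, 32.2% to 33.3% of those of the dilation mice, and 27.0% and 22% in mice 7 and 9. The median depth of resident cells was 7673 to 10416.5 UMIs in Jak2WT mice, 11014 to 11133 with dilation and 13056 and 11887.5 with aneurysm. The summed level of 20 immediate-early and heat-shock genes was 29056 to 39835 CPM in Jak2WT mice and 35247 to 42880 CPM in mutant mice. For Ifrd1 (437 and 263 CPM), Gdf15 (275 and 147) and Atf4 (281 and 204) means were higher in the Res-MGL1hi than the interferon-gene cluster. They were lower for Txnip (537 and 828) and Ddit4 (29.8 and 94.3), and mice of the clusters overlapped for each. The part of makeup, immediate-early genes and depth in the differences was not tested beyond these values and the tests by cluster below. With cells thinned to 2000 UMIs the log2 fold change of Ifrd1 was 0.77 (adjusted p = 0.102).

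Within the Res-MGL1hi cluster alone, which only 3 Jak2WT mice filled, the directions for Atf4, Ddit3, Gdf15 and Ifrd1 were the same and no member passed the threshold. Ifrd1 had 192, 409 and 228 CPM in mice 1, 2 and 5, against 588, 596, 343, 592 and 552 in mice 6 to 10 (log2 fold change 0.95 ± 0.23, adjusted p = 0.160). Ddit3 had 27.4, 37.1 and 12.7 CPM from 5, 12 and 4 UMIs, against 53.5 to 79.7 CPM (1.42 ± 0.30, adjusted p = 0.111). Atf4 had 208, 245 and 177 CPM against 282 to 356 (0.65 ± 0.15, adjusted p = 0.152). Ddit3 and Atf4 were the 2 of 7 members with all mutant mice above all Jak2WT mice, as were 3.6% of the genes tested, while 3.44% lay below in the same way. Gdf15 had a log2 fold change of 0.91 ± 0.28 (adjusted p = 0.313) and Txnip of 0.03 ± 0.17 (adjusted p = 0.991). By edgeR 3 of 6103 genes (0.0492%) were called and none was a member. At an unadjusted p under 0.05 stood 4 members and 8.52% of all genes. DESeq2 called 2 members, Ifrd1 and Atf4, and its larger count over all genes is given with the processing.

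In the interferon-gene cluster of all 10 mice, Ifrd1 had a log2 fold change of 0.70 ± 0.38 (adjusted p = 0.660), Ddit4 of 0.68 ± 0.58, Gdf15 of 0.46 ± 0.53, Atf4 of 0.22 ± 0.18, Ddit3 of 0.18 ± 0.32 and Txnip of -0.11 ± 0.19. The edgeR test called none of 3719 genes (0%), DESeq2 called no member, and 0 members had an unadjusted p under 0.05, against 7.91% of all genes. Of the genes 0.538% were higher and 0.807% lower without overlap, and no member was.

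In IEG+ macrophages Ifrd1, Ddit3 and Atf4 had values below 0 and the other 4 members had the sign they had in resident macrophages, with none past the threshold. Ifrd1 had a log2 fold change of -0.08 ± 0.15 (adjusted p = 0.919), Ddit3 of -0.23 ± 0.19, Atf4 of -0.21 ± 0.12 and Txnip of -0.59 ± 0.22 (adjusted p = 0.294), while Cdkn1a had 0.75 ± 0.20 (adjusted p = 0.119) and Gdf15 0.54 ± 0.20 (adjusted p = 0.292). Cdkn1a had 487, 424, 1035 and 509 CPM in Jak2WT mice 1, 2, 3 and 5, against 1122, 1093, 883, 952 and 1338 in mice 6 to 10, so that Jak2WT mouse 3 alone overlapped. No member was without overlap, as were 2.88% of genes that were higher and 0.86% that were lower. No member was called by edgeR, where 19 of 5234 genes (0.363%) were, and 3 members and 10.7% of all genes had an unadjusted p under 0.05. DESeq2 called Cdkn1a, and its larger count over all genes is given with the processing. In the same cells 1 of 20 immediate-early and heat-shock genes had a positive value, with a median of -0.26. Of these the heat-shock gene Dnajb1, chosen after its value was seen, fell (-0.84 ± 0.16, adjusted p = 0.0305), 10 had an unadjusted p under 0.05 and DESeq2 called 8. The part of these genes in the members' values was not tested. Whether the differences in IEG+ and in resident macrophages differ from each other was not tested.

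**Figure D4:**
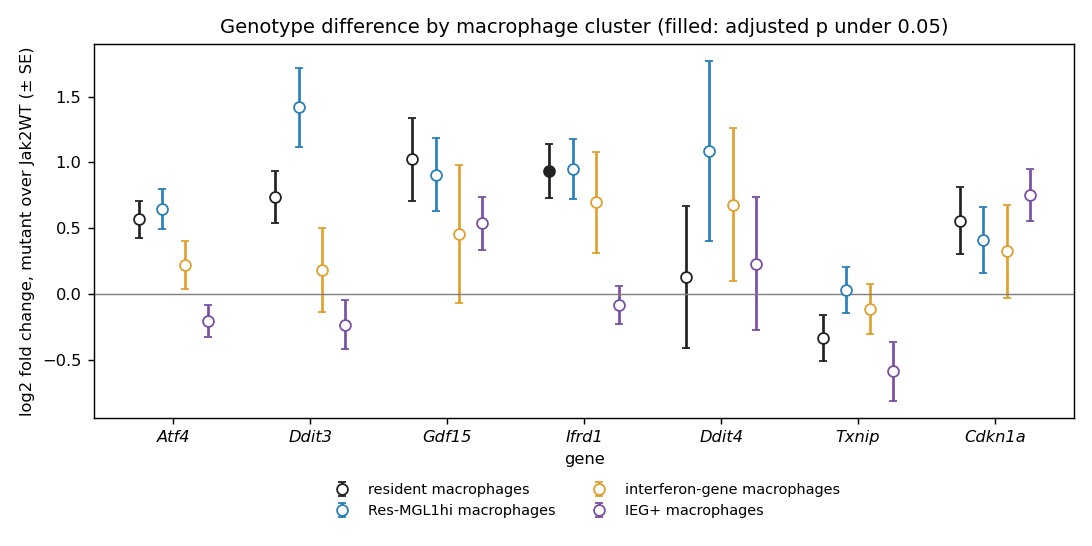
Log2 fold change of mutant over Jak2WT mice (points, with bars of 1 SE; above 0 is higher in the mutant) for the 7 tested members in resident macrophages as a whole and in 3 macrophage clusters. The filled point, Ifrd1 in resident macrophages at 0.94, is the only one past the threshold, and Atf4, Ddit3, Ifrd1 and Txnip lie below 0 in IEG+ macrophages.

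The same test was run in lymphocytes, in which LysM-Cre is little active, and in cDC2. In B cells (4 members tested, 0 of 3306 genes called, 0%) Ifrd1 had a log2 fold change of -0.29 ± 0.20 and Txnip of 0.52 ± 0.25. In T cells (3 members, 0 of 3169 genes called, 0%) Ifrd1 had -0.03 ± 0.29 and Txnip -0.91 ± 0.39. In ILC2 (4 members, 0 of 1871 genes, 0%) Cdkn1a had 0.79 ± 0.38 and Txnip -1.02 ± 0.46, and in cDC2 (7 members, 0 of 4268 genes, 0%) Ddit3 had -0.91 ± 0.28. The counts of members with an unadjusted p under 0.05 were 0, 1, 1 and 1 in this order, against 4.51%, 7.16%, 6.2% and 7.05% of all genes, and DESeq2 called no member in the 4 classes.

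Tested directly with the mouse as a block, the genotype difference of resident macrophages minus that of B cells was 1.37 ± 0.29 for Ifrd1 on the log2 scale (adjusted p = 0.0554). It was 1.05 ± 0.36 for Ddit3, 0.84 ± 0.25 for Atf4 and, in the other direction, -0.84 ± 0.32 for Txnip. Against T cells it was 1.04 ± 0.28 for Ifrd1 (adjusted p = 0.148), 1.52 ± 0.41 for Ddit3 and 1.64 ± 0.59 for Gdf15. For Txnip it was 0.25 ± 0.35 against T cells, opposite in sign to that against B cells. Ddit3 and Gdf15 had too few UMIs to be tested in T cells alone (2 to 25 and 0 to 15 per mouse), as had Gdf15 in B cells (0 to 15), so that they entered these fits through the resident macrophages. By edgeR 4 of 7365 genes (0.0543%) were called against B cells and 7 of 6130 (0.114%) against T cells, 6 of them higher (0.0979%) and 1 lower (0.0163%), and none was a member. At an unadjusted p under 0.05 stood 4 members in each, against 5.7% and 7.78% of all genes. Against T cells these included Ddit3 and Gdf15, which passed the filter only through the resident macrophages. That count, like the values of these genes, is therefore a description and no support. DESeq2 was not run for these terms.

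The second comparison asked whether the members differed with the severity of disease, in 1 fit of the 3 groups. No member passed the threshold between aneurysm and dilation in resident macrophages. Txnip, a description here because it was among the markers used to choose these cells, was lower in both mice with aneurysm (437 and 528 CPM). All 3 with dilation had 623 to 724 CPM, and the log2 fold change was -0.51 ± 0.23 (adjusted p = 0.999). Ddit4 was lower in the same way (-0.77 ± 0.70) and Ddit3 higher (0.28 ± 0.23), but with 2 mice against 3 this held for 9.66% and 10.6% of all genes. Ifrd1 had 0.38 ± 0.27, Cdkn1a 0.31 ± 0.35, Gdf15 0.26 ± 0.42 and Atf4 0.02 ± 0.20. By edgeR 4 of 7600 genes (0.0526%) were called, 1 member and 4.57% of all genes had an unadjusted p under 0.05, and DESeq2 called no member.

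Between dilation and Jak2WT, which share the fit and the dilation mice with the comparison above, Gdf15 had a log2 fold change of 0.92 ± 0.36 (adjusted p = 0.406), Ifrd1 0.77 ± 0.22 (adjusted p = 0.235), Ddit3 0.62 ± 0.22 and Atf4 0.56 ± 0.17 (adjusted p = 0.249). Txnip had -0.15 ± 0.18. No member passed by edgeR or DESeq2, 4 members and 9.09% of all genes had an unadjusted p under 0.05, and 2 of 7600 genes (0.0263%) were called by edgeR.

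Other genes of the pathways were read from 8 lists. In resident macrophages the median log2 fold change between genotypes was 0.57 over the 7 members and -0.02 over all genes tested, of which 47.3% had a positive value and 13% an unadjusted p under 0.05. Members and lists were chosen with earlier results of these data known, so these medians are a description. Of 16 tested targets of ATF4, 1 rose, with a median of 0.13. This was Cebpb, a transcription factor of myeloid cells, at 538 to 927 CPM in Jak2WT mice and 980 to 1123 in mutant mice (0.66 ± 0.13, adjusted p = 0.0258). Any member on a list was left out of its count. Apart from any members, the other listed targets of ATF4, of 35 in all, had too few UMIs to be tested. Of 10 tested sensors and core factors of the response none passed by edgeR or DESeq2 (2 had an unadjusted p under 0.05), with a median of 0.06. The largest difference was that of Ppp1r15a, which returns eIF2 to its active form, at 292 ± 109 CPM in Jak2WT and 450.1 ± 82.2 in mutant mice (0.62 ± 0.19, adjusted p = 0.136).

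Of 18 tested chaperones and sensors of the unfolded protein response 14 had a positive log2 fold change and none passed by edgeR, with 4 at an unadjusted p under 0.05. Hspa5, the main chaperone of the endoplasmic reticulum, had 583 ± 86.0 CPM in Jak2WT and 842 ± 151 in mutant mice (0.52 ± 0.13, adjusted p = 0.0599) and was called by DESeq2. Of 17 tested genes of FOXO and starvation responses 1 rose, with a median of -0.03. This was Sqstm1, which delivers cargo to autophagosomes, at 162 to 241 CPM in Jak2WT and 258 to 402 in mutant mice (0.71 ± 0.15, adjusted p = 0.0321). None of 9 tested MondoA and glucose genes passed by either tool (1 at an unadjusted p under 0.05). Ldha, which makes lactate, had the largest difference (0.35 ± 0.16, adjusted p = 0.367).

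None of 14 tested targets of p53 passed by either tool, with 2 at an unadjusted p under 0.05 and a median of 0.01, and the largest difference was that of Sesn1 (-0.66 ± 0.19, adjusted p = 0.109). Of 11 glucocorticoid targets 10 had a positive log2 fold change with a median of 0.48, none passed by either tool and 5 had an unadjusted p under 0.05. Mt2, a metallothionein, had 0.88 ± 0.38 (adjusted p = 0.335). Of 20 immediate-early and heat-shock genes 17 had a positive value with a median of 0.29. None of these passed by edgeR, 9 had an unadjusted p under 0.05, and DESeq2 called 3, namely Junb, Ier3 and Hspa8. The chaperone Hsph1 had the largest difference (0.77 ± 0.23, adjusted p = 0.133). The same list had 16 of 20 positive in Res-MGL1hi macrophages (median 0.26), 13 of 17 in ILC2 (0.22) and 12 of 19 in B cells (0.27). It had 1 of 20 positive in IEG+ macrophages (-0.26), 10 of 20 in interferon-gene macrophages (0.0016), 5 of 20 in cDC2 (-0.16) and 2 of 18 in T cells (-0.27). Some genes stand in more than 1 list.

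Between aneurysm and dilation no gene of the 8 lists passed by edgeR or DESeq2. The medians were 0.07 for the sensors and core factors, 0.04 for ATF4 targets, 0.19 for chaperones, 0.11 for p53 targets, -0.06 for FOXO and starvation genes, -0.27 for MondoA and glucose genes, -0.21 for glucocorticoid targets and -0.03 for immediate-early and heat-shock genes, against -0.01 over all genes. The genes with the largest differences were Eif2ak3 (0.38 ± 0.33), Cars (0.96 ± 0.46), Manf (0.51 ± 0.20), Polk (-0.98 ± 0.42), Sesn3 (1.01 ± 0.44), Hk2 (0.67 ± 0.35), Zbtb16 (-0.68 ± 0.42) and Nr4a1 (0.65 ± 0.36), in the order of these lists, with an adjusted p of 0.999 for each. At an unadjusted p under 0.05 stood 0, 1, 1, 2, 1, 1, 0 and 1 genes of the lists, against 4.57% of all genes tested.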

How the data were processed

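The authors counted reads with Cell Ranger 6.0.2 on mm10 and deposited raw UMI counts of 32285 genes, 75 antibodies and 10 hashtags for 8471 barcodes, all mice in 1 matrix. The labels name Seurat 3.0.0. From the deposited counts, mice were assigned by HTODemux (quantile 0.99) in Seurat 5.3.0 (R 4.3.3), doublets of hashtags were removed, and doublets within a mouse could not be. Cells with over 10% mitochondrial UMIs were removed. Clustering used 2000 variable genes, 20 components and a resolution of 0.3, then 0.8 for macrophages, and clusters were named by markers (score of at least 0.5, and 0.3 for macrophage subsets). The authors' cell labels were not used here.

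UMIs were summed per mouse and class (at least 10 cells), reduced to the genes that pass filterByExpr, normalised with TMM and tested with edgeR 4.0.16 (quasi-likelihood, two-sided, Benjamini-Hochberg over all genes tested, threshold 0.05). As an alternative, DESeq2 1.42.0 was run on all genes with any UMI, with its own normalisation and filter, so it differs in the genes tested as well. Its counts were not set against the number of genes it tested, so its calls have no share beside them. SE is the size of the log2 fold change divided by the square root of its F statistic. CPM was scaled by the total UMIs of each sum. Members and lists were chosen with earlier results of these data known. Rules that left clusters unnamed, and the choice of the 2 resident clusters, were made after the clusters were seen. The named genes are the 9 members, up to 4 called genes per list or else the gene with the largest log2 fold change, and the 3 most similar genes of each member with at least 20 CPM in a class. Scripts were tested on simulated data.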

Additional observations from a re-analysis of the deposited data

Results flagged for a closer look

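In 105 groups of 4 or 5 mice of the same genotype, 5 had a mouse set apart from the rest by Dixon's criterion at the 95% level, about as many as chance gives (1 in 20 groups). Ifrd1 in Res-MGL1hi macrophages was 342.6 CPM in mutant mouse 8 (173 UMIs), against 552 to 596 in the other 4 mutant mice. Cdkn1a in IEG+ macrophages was 1035 CPM in Jak2WT mouse 3 (428 UMIs), against 424 to 509 in the others. Atf4 in IEG+ macrophages was 471 CPM in mutant mouse 10 (494 UMIs), against 351 to 377. Txnip in B cells was 204.4 CPM in Jak2WT mouse 2 (41 UMIs), against 96.6 to 104. Ddit3 in ILC2 was 38.1 CPM in Jak2WT mouse 2 from 7 UMIs, and 0 in the others.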

How the results depend on the processing

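In resident macrophages, 71 genes differed between genotypes. The count was 125 with DESeq2, which was run without filterByExpr. It was 293 without a filter on low counts, 222 with another hashtag caller, MULTIseqDemux, 9 at a resolution of 1.2, 1 in all macrophages that passed the RNA limit and 43 with the IEG+ cluster added. Settings chosen after seeing the data gave 3 in the Res-MGL1hi cluster alone and 6 with cells thinned to 2000 UMIs. Leaving out 1 mouse gave 2 (without mouse 9) to 118 (without mouse 2). Aneurysm against dilation moved from 4 genes to 89 without a filter and 905 in all macrophages (0 without mouse 8 to 7 without mouse 7). Dilation against Jak2WT moved from 2 to 35 with DESeq2, 215 without a filter and 1 in all macrophages (1 to 11 when 1 mouse was left out). With DESeq2 and without a filter the counts were 32 and 135 in Res-MGL1hi (3; 2 to 8 when 1 mouse was left out), 1 and 125 in interferon-gene (0; 0 to 2), 45 and 157 in IEG+ macrophages (19; 4 to 30) and 14 and 48 in cDC2 (0; 0 to 4). Without a filter they were 13 in B cells (0; 0 to 1), 48 in T cells (0; 0 to 0) and 40 in ILC2 (0; 0 to 1). The alternatives for dilation, and leaving out mice from the differences between cell types, were also chosen after seeing the data. The cause of these shifts was not tested.

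Without the mouse as a block, 0 genes in place of 4 were called for the genotype difference of resident macrophages against B cells, and 2 in place of 7 against T cells. Without a filter they were 21 and 48, and leaving out 1 mouse gave 0 to 13 and 3 to 18. No paired analysis was made for the genotypes, because the litter of each mouse was not given in the sources used here.

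Ifrd1 kept its direction in all 24 alternatives and passed in 12 (log2 fold change 0.26 to 1.33, adjusted p 9.8e-07 to 0.612). Its lowest values were 0.26 with the IEG+ cluster added and 0.31 in all macrophages. Atf4 passed in 9 of 24, Gdf15 in 5 of 24, Ddit3 in 4 of 23 and Cdkn1a in 3 of 24, each in 1 direction. These counts, and that of Ifrd1, include the setting where the response genes shaped the clusters. There the members had helped to choose the cells, so that setting is no test of them. Ddit4 turned to -0.201, -0.178, -0.00983 and -0.1998 without mouse 1, 2, 4 or 10 (range when 1 mouse was left out -0.201 to 0.764) and to -0.0371 with MULTIseqDemux, and Txnip to 0.0302 in the Res-MGL1hi cluster alone. Ddit4 and Txnip passed in none.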

Other observations

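Among the Jak2WT mice, Txnip and Ddit4 in resident macrophages were both highest in mice 3 and 5. Txnip was 1119 and 869 CPM there against 579.8 to 628 in mice 1, 2 and 4, and Ddit4 was 126 and 110.1 against 2.13 to 18.8. In T cells of the same mice Txnip was 169.7 and 213 CPM against 8.51 to 61.6, while Ddit4 was 16.7 and 13.0 against 23.9 to 51.0. In ILC2 Txnip was 72.0 and 61.6 CPM in mice 3 and 5, against 402 and 201 in mice 1 and 2. These are values of single mice, noticed after the data were seen, and were not tested.

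In Ccr2+ inflammatory macrophages only 1 Jak2WT mouse had at least 10 cells, so no genotype test was possible. Gdf15 was 804 and 536 CPM in the mice with aneurysm (2422 and 1673 UMIs), 336 and 1715 in mice 6 and 10 with dilation, and 0 in Jak2WT mouse 2. Txnip was 91.0 and 53.5 CPM in the mice with aneurysm, 514 and 65.2 in mice 6 and 10, and 98.2 in mouse 2.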
